A study of Mus musculus with 17 samples.

Results

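The genes described here are 10 AP-1 and immediate early genes. They are 10 of the 30406 mouse genes present in every library's gene list: Fos, Fosb, Fosl1 and Fosl2, Jun, Junb and Jund, Atf3, Egr1 and Ier2. They were chosen by name and followed in all 17 single-cell RNA libraries, 8 from skin and 9 from kidney, because taking a tissue apart may raise them as well as a treatment. FOS and JUN proteins pair through a leucine zipper to form AP-1, a transcription factor that binds DNA as a dimer. FOS family members need a JUN partner, while JUN members can also pair with each other, and FOSL1 and FOSL2 lack the strong activation domain of FOS. Immediate early genes are transcribed within minutes of growth factor, stress or injury signals without new protein synthesis, and AP-1 is known in skin and kidney for its part in wound repair, inflammation and matrix gene control.

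All mice were 8 weeks old and carried PDGFRb-Cre with the Z/EG reporter, which turns on GFP where Cre has acted, and the sorted GFP+ cells were read on the 10x droplet platform. The SARATg mice also carried a Cre-activated transgene of human ZFYVE9 (the gene for SARA, an endosomal adaptor of TGF-β receptors), which the SARAWT mice lacked. In skin there were 3 SARAWT libraries given PBS, 3 SARAWT libraries given bleomycin, 1 SARATg library given PBS and 1 SARATg library given bleomycin. Bleomycin, a DNA-damaging drug used to model skin fibrosis, was injected under the skin at 20 mg/kg 3 times a week for 2 weeks, per the sample records. The paper's methods instead give daily injections for 2 weeks, with skin taken 1 week after the injections had ended. In kidney there were 3 SARAWT libraries given vehicle, 3 SARAWT libraries given aristolochic acid, 2 SARATg libraries given vehicle and 1 SARATg library given aristolochic acid. Aristolochic acid, a plant toxin taken up by proximal tubules, was injected into the peritoneum at 5 mg/kg 3 times a week for 3 weeks. The PDGFRb promoter is also active in leukocyte precursors, so the Cre label is not limited to pericytes and fibroblasts. The tissue was minced and digested with Liberase and DNase before the sort, and no undissociated sample was analysed here, so the part of dissociation in any level below was not tested.

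Kept cells numbered 30075 in skin and 71324 in kidney. The total UMI count (unique molecules) ran from 3355217 to 69765525 in a skin library and from 28660151 to 137093834 in a kidney library. Pdgfrb itself stood at 7.08 to 59.6 CPM (UMIs of the gene per 1000000 UMIs of the summed cells) in the skin libraries and at 0.187 to 3.00 CPM in the kidney libraries, while the leukocyte gene Ptprc stood at 342 to 585 CPM and 53.2 to 514 CPM. In kidney, 56 cells were mural-like and 55 stromal-like, beside 29208 proximal tubule-like cells, in which Pdgfrb stood at 0.0883 CPM. The paper describes its sort for back skin. How tubule cells came to be among the cells read was not tested, so they are not taken here as Cre-labelled. Zfyve9 went against the labels of some libraries. In skin, mouse Zfyve9 reached 621 CPM in the library labelled SARAWT PBS 3, against 7.75 to 26.0 CPM in the other SARAWT libraries. The SARATg PBS and bleomycin libraries had 314 and 224 CPM. Human ZFYVE9 was in the gene list of SARAWT PBS 1, PBS 2, bleomycin 1 and bleomycin 2 only. It reached 845 CPM in the one labelled SARAWT PBS 1, against 89.3 to 190 CPM in the other libraries counted with that entry. Those are labelled SARAWT too, so human ZFYVE9 was also read in libraries whose mice should lack the transgene. In kidney, mouse Zfyve9 was at 167 CPM in the library labelled SARAWT aristolochic acid 1 and at 20.7 CPM in the one labelled SARATg aristolochic acid 1, whereas the SARATg vehicle libraries had 93.4 and 91.7 CPM. SARAWT PBS 2 shared 55.5% of its barcodes with other skin libraries, and 3 further skin libraries shared 7.38% to 22.1%. Libraries are named by their labels throughout.

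RefSeq promoters (build GRCm38.p6, 250 bases before to 50 bases after the start) were held for 7 of the 10 genes. Those of Fosl1, Egr1 and Ier2 were missing, and bases further upstream were not searched for any gene. None of the 7 held a CArG box (the serum response factor motif), which 1.63% of 32851 promoters hold, nor TGANTCA (the AP-1 site, 7.81%), nor the full cAMP response element TGACGTCA (1.79%), on either strand. The core letters of that element, TGACG on either strand, are in 4 of the 7 and in 20.8% of all promoters, and TATAAA on either strand is in 2 of the 7 and in 13.6% of all. Both of these shorter motifs were searched after the first 3 had shown no match. The promoters of Fos, Fosb, Junb and Atf3 are shown because they are the 4 that hold the core letters, with matches to TGACG (or its complement CGTCA) and TATAAA in capitals. They lie at chr12:85473640-85473939 on the plus strand (Fos) and, on the minus strand, at chr7:19309996-19310295 (Fosb), chr8:84978699-84978998 (Junb) and chr1:191183284-191183583 (Atf3).
Fos: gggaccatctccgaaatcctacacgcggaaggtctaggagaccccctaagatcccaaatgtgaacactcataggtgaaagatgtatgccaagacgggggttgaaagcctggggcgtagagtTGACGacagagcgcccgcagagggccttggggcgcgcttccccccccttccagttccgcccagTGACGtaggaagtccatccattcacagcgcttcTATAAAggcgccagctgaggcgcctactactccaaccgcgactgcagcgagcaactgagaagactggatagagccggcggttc
Fosb: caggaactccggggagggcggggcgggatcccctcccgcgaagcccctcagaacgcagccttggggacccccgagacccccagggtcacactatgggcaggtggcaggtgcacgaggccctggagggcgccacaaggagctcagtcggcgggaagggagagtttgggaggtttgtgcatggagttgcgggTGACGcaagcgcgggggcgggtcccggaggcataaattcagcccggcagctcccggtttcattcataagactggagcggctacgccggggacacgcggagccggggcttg
Junb: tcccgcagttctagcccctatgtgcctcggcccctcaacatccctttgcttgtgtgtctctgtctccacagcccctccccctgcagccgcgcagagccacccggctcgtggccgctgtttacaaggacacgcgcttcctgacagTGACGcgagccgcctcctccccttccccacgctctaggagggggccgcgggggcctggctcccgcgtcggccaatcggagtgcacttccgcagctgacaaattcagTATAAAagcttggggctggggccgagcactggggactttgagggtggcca
Atf3: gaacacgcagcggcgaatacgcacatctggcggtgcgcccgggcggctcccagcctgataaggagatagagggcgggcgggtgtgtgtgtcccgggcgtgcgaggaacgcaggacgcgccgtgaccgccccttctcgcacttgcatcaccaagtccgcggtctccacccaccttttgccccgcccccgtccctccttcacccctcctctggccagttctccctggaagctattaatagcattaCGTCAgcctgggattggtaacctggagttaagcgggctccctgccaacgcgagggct
In Fos the core letters begin 129 and 66 bases before the start and TATAAA 33 bases before it. The core begins 60 bases before the start in Fosb, 106 in Junb and 7 in Atf3. A match of this kind describes the letters and does not show that a factor binds there.

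Cells were gated by fixed marker lists into classes, and CPM was computed from the summed UMIs of each class in each library with at least 20 cells of it. Classes are ordered below where at least 3 libraries reached that number, which leaves 12 classes in each tissue. Outside the order are B cell-like and melanocyte-like cells of skin and stromal-like cells of kidney, each with 1 such library. The means pool the treatments and genotypes a class has, which differ between classes: the 3 skin libraries with mural-like cells were all given PBS, so their rank beside classes that also hold bleomycin libraries is not like for like. The members' levels differed by class more than by library for most genes in skin. On the log2(CPM + 1) scale, the SD between class means was 2.28 times the SD between libraries within a class for Egr1 and for Jun, 1.99 times for Fosl2 and 0.953 times for Jund. In kidney, too, that ratio was above 1 for most genes, highest for Ier2, at 2.32, and Junb, at 1.93. It was below 1 only for Fosb, at 0.523, and Fosl1, at 0.463, for which libraries differed more than classes did.

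**Figure D1:**
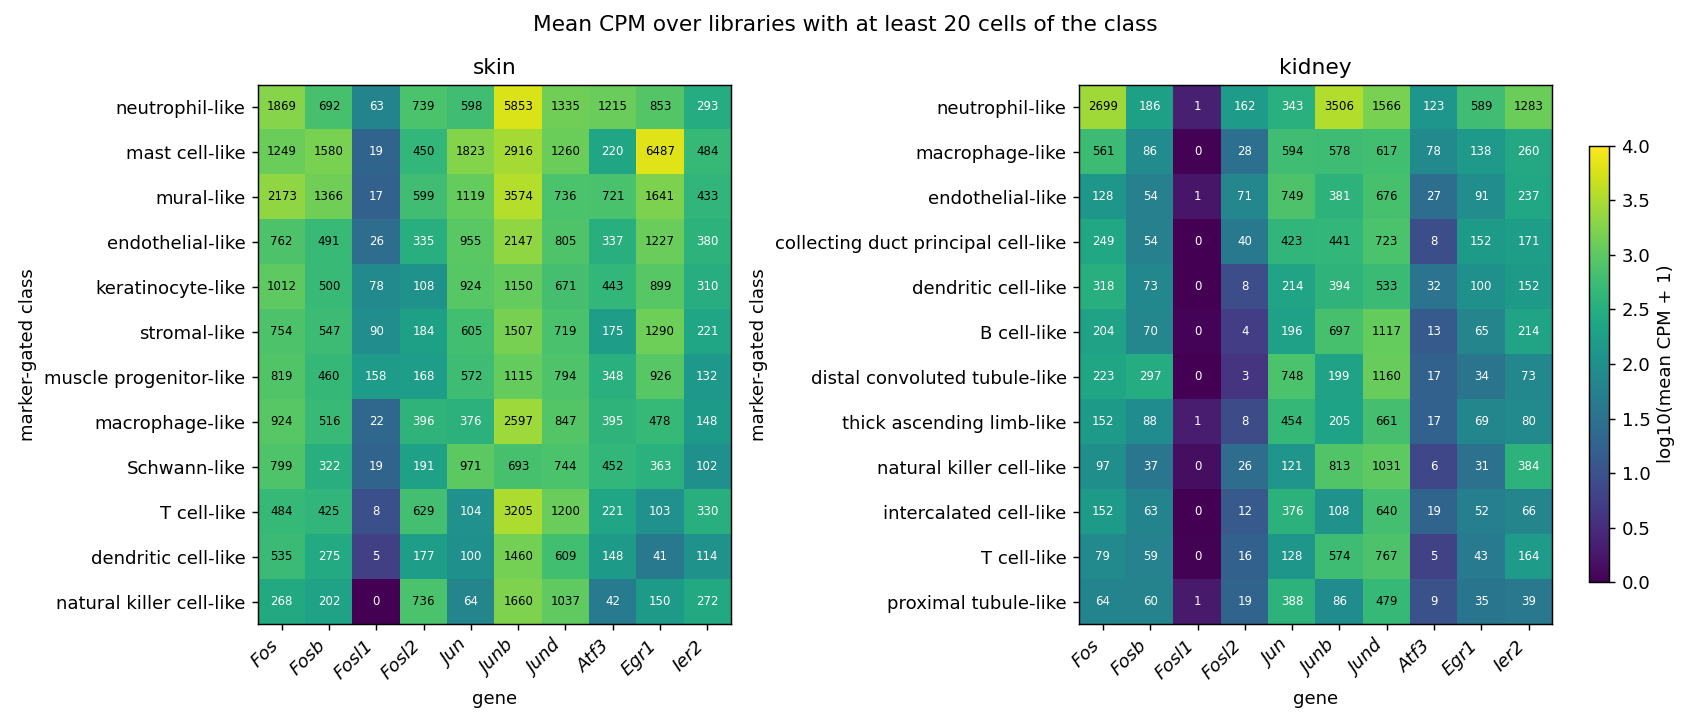
Heat map of mean CPM for each of the 10 genes (columns) in each gated cell class with at least 3 libraries (rows), skin and kidney in separate panels. The number printed in a cell is the mean CPM over libraries, the colour is log10(mean CPM + 1), and the mast cell-like class of skin stands out for Egr1 and the neutrophil-like class of kidney for Fos, Junb and Ier2.

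Egr1, a zinc finger factor that acts beside AP-1, had its highest skin level in mast cell-like cells. There it stood at 6487 ± 3231 CPM (SD, n = 7 libraries), with 2242 CPM in the lowest library (SARAWT bleomycin 3) and 12453 CPM in the highest (SARAWT PBS 1). Next came mural-like cells with 1641 ± 570 CPM (n = 3, PBS only) and stromal-like cells with 1290 ± 684 CPM (n = 8). That step down from mast cell-like cells was the only one between neighbours in the order of 12 classes that exceeded the larger of both SDs for Egr1.

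Of the JUN genes, Jun was also highest in mast cell-like cells, at 1823 ± 1041 CPM (n = 7). It was lowest in T cell-like cells at 104 CPM on average, dendritic cell-like cells at 99.8 CPM and natural killer cell-like cells at 64.2 CPM. Junb, which often restrains JUN, was highest in neutrophil-like cells, at 5853 ± 2605 CPM (n = 6), with mural-like cells next at 3574 ± 550 CPM (n = 3, PBS only) and then T cell-like cells at 3205 ± 1461 CPM (n = 7), and no step in its order exceeded the larger SD.

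Of the FOS genes, Fos stood highest in mural-like cells, at 2173 ± 269 CPM (n = 3, PBS only), followed by neutrophil-like cells at 1869 ± 1379 CPM (n = 6), whose libraries ran from 921 to 3946 CPM. Fosl2 was at 739 CPM on average in neutrophil-like cells and at 629 ± 222 CPM (n = 7) in T cell-like cells, and keratinocyte-like cells had 108 CPM. Atf3, a stress-induced factor that pairs with JUN proteins, was highest in neutrophil-like cells of skin at 1215 ± 374 CPM (n = 6).

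In kidney the neutrophil-like class led for 8 of the members among the 12 classes ordered, though for Fosl1 that lead rests on 0 to 3 UMIs in a library and for Fosl1, Atf3 and Jund the step down to the next class did not exceed the larger SD. Fos stood there at 2699 ± 1104 CPM (n = 8 libraries), against 561 ± 261 CPM (n = 9) in macrophage-like cells, the next class. Junb was at 3506 ± 1336 CPM and Ier2, a nuclear immediate early protein, at 1283 ± 720 CPM in neutrophil-like cells. The exceptions were Fosb, highest in distal convoluted tubule-like cells at 297 ± 308 CPM (n = 6), and Jun. Jun was highest in endothelial-like cells at 749 ± 104 CPM (n = 8), which distal convoluted tubule-like cells met within their spread at 748 ± 532 CPM. Proximal tubule-like cells, the class with most cells, had the lowest Fos of the 12, at 63.8 ± 46.0 CPM (n = 9). Kidney stromal-like cells, left out of the order, came from 1 library (SARATg vehicle 2, 42 cells) and had Jun at 1708 CPM, Jund at 1705 CPM and Fosb at 435 CPM, each above the mean of the leading class, with Fos at 1580 CPM. For each gene in either tissue, at most 3 of the 11 steps between neighbouring classes exceeded the larger SD.

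Fosl1, the FOS family gene often raised in injured epithelium, was nearly undetected in kidney. Over all kept cells it gave 0, 2 and 84 UMIs in SARAWT vehicle libraries 1, 2 and 3. It gave 26, 5 and 19 UMIs in the SARAWT aristolochic acid libraries, 1 and 5 in the SARATg vehicle libraries and 113 in the SARATg aristolochic acid library. The 0 in vehicle 1 allows up to 0.0224 CPM (3 counts of that library's total, for counting error only), and every skin library lay at or above 17.7 CPM.

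The same class could be compared between tissues for 5 classes. Skin levels lay wholly above kidney levels for Fosl2 and for no other gene in all 5 of them. In macrophage-like cells Fosl2 ran from 335 to 487 CPM in 8 skin libraries and from 18.7 to 39.6 CPM in 9 kidney libraries, a ratio of medians of 15.7. In T cell-like cells the ratio of medians was 34.9, in dendritic cell-like cells 22.3 and in neutrophil-like cells 5.24. In endothelial-like cells Fosl2 ran from 199.7 to 409 CPM in 4 skin libraries and from 31.2 to 145 CPM in 8 kidney libraries.

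In macrophage-like cells 4 of 10 members lay wholly above in skin (Fosb, Fosl1, Fosl2 and Junb), beside 7.65% of the 21570 genes with at least 1 UMI in the class. In T cell-like cells 6 of 10 did so (Fos, Fosb, Fosl1, Fosl2, Junb and Atf3), beside 7.14% of genes. In dendritic cell-like cells Fosl1, Fosl2 and Junb did (3 of 10, beside 4.62% of genes). In endothelial-like cells 6 of 10 lay above in skin (Fos, Fosb, Fosl2, Junb, Atf3 and Egr1), beside 3.4% of genes. In neutrophil-like cells Fosl2 and Atf3 lay above (2 of 10, beside 2.65% of genes) and Ier2 below (1 of 10, beside 3.8%). These shares include many genes too low to separate. Among genes averaging at least 20 CPM in either tissue, the share wholly above in skin was 20.3% in macrophage-like, 19.2% in T cell-like, 12.7% in dendritic cell-like, 6.57% in endothelial-like and 8.72% in neutrophil-like cells, and the share wholly below in neutrophil-like cells was 10.9%, a filter that a gene can pass through the tissue where it is high. Fosl1 separated at low levels, for example from 12.5 to 33.8 CPM in macrophage-like cells of skin and from 0 to 0.306 CPM in those of kidney. In T cell-like and dendritic cell-like cells of skin Fosl1 reached at most 17.3 and 10.7 CPM. It falls short of the 20 CPM filter there, so the member counts of these 2 classes, which include Fosl1, are not like for like with those shares. Ier2 in neutrophil-like cells ran from 256 to 357 CPM in 6 skin libraries and from 703 to 2920 CPM in 8 kidney libraries. Tissue, handling and the Cell Ranger version used for counting cannot be told apart in this comparison.

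**Figure D2:**
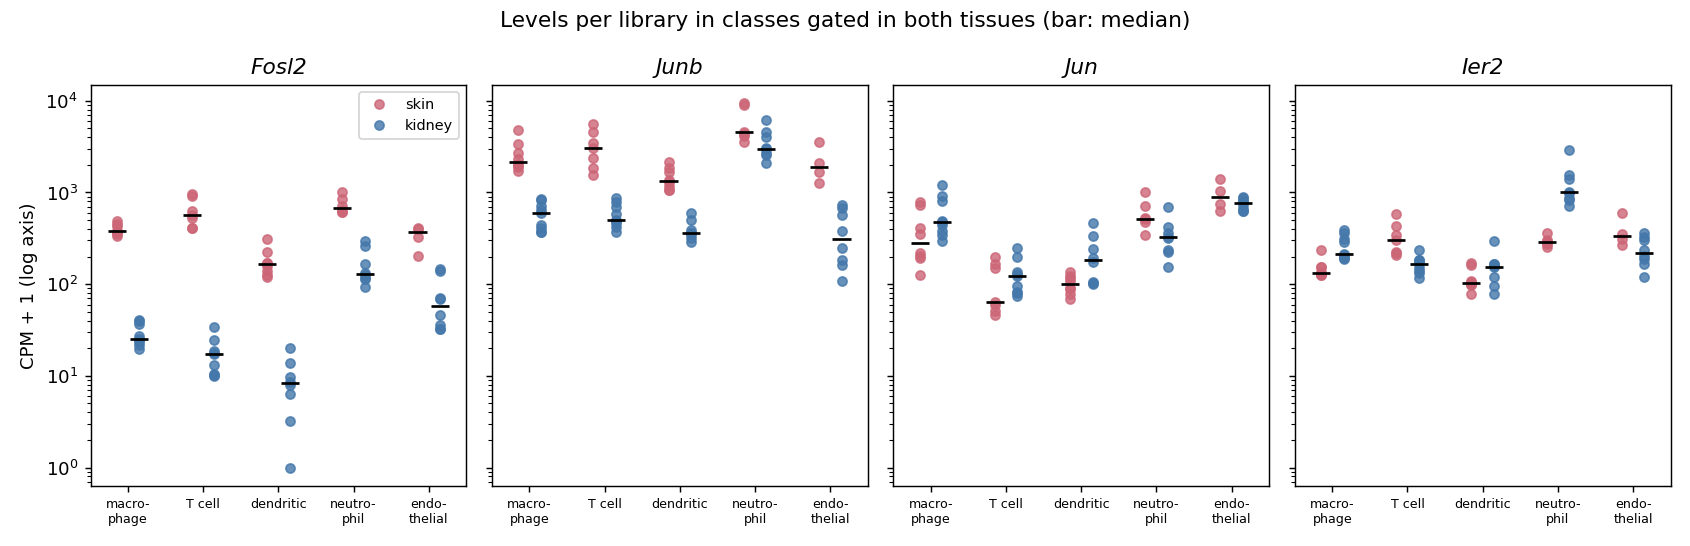
CPM + 1 (log axis) of Fosl2, Junb, Jun and Ier2 in the 5 classes gated in both tissues, 1 point per library with a bar at the median, skin in red and kidney in blue. Fosl2 points of skin lie above those of kidney in every class shown, at 335 to 487 CPM against 18.7 to 39.6 CPM in macrophage-like cells, while Jun points of both tissues mix.

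The effect of bleomycin on the members in SARAWT skin was tested in all kept cells and in 3 classes. Over all kept cells, Egr1 stood at 1253, 1106 and 410 CPM in SARAWT PBS libraries 1, 2 and 3 and at 287, 302 and 276 CPM in SARAWT bleomycin libraries 1, 2 and 3. Every PBS library lay above every bleomycin library, and the SARATg pair had the same order, with 775 CPM after PBS and 273 CPM after bleomycin. The log2 fold change of Egr1 was -1.50 (SE 0.35), with an adjusted p of 0.0958 in edgeR's quasi-likelihood test.

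Jun stood at 632, 627 and 390 CPM after PBS and at 328, 357 and 258 CPM after bleomycin, and its groups did not overlap either. Its log2 fold change was -0.65 (SE 0.21, adjusted p = 0.174 in edgeR). The groups of Fosb, Fosl1 and Ier2 did not overlap either, while those of Fos, Fosl2, Junb, Jund and Atf3 did. The share of all genes whose groups do not overlap is not given here for any treatment comparison. None of the 10 members passed an adjusted p of 0.05, nor did any of the 15334 genes tested (0%). At an unadjusted p under 0.05 there were 4 members, all lower after bleomycin (Egr1, Jun, Fosl1 and Fosb), beside 2802 of all genes, and DESeq2 called 1 member, Egr1, among 1320 genes. The median log2 fold change of the members was -0.39, beside 0.01 over all genes tested. In the libraries pooled over classes, a change in the cells' makeup and a change within cells cannot be told apart.

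PBS 3 bears on this result. Without it, Egr1 (-1.84, adjusted p = 0.0112) and Jun (-0.81, adjusted p = 0.0460) passed in edgeR, as did 6.22% of all genes. Without PBS 1 and PBS 3, the libraries whose Zfyve9 or ZFYVE9 goes furthest against their labels, Egr1 was at -1.78. That fit leaves a single PBS library, so no p-value is given for it. With the gene list used for counting as a covariate, an alternative added after seeing the data, Egr1 and Jun passed with adjusted p of 0.0397 and 0.0378, as did 5.42% of all genes.

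Stromal-like cells carry collagen and fibroblast markers. Pdgfrb stood at 114 CPM in them over all skin libraries and higher, at 500.2 CPM, in mural-like cells, which reached 20 cells in 3 libraries and were not tested. In stromal-like cells Fosl2 stood at 270, 265 and 273 CPM after PBS (269 ± 4.10, SD, n = 3) and at 95.7, 155 and 144 CPM after bleomycin (131 ± 31.5). The groups were well apart, and the SARATg libraries had 179 CPM after PBS and 94.6 CPM after bleomycin. In SARAWT PBS 2, bleomycin 1 and bleomycin 2, most stromal-like cells carry barcodes that other libraries share. The SDs and n above take these libraries as independent, which was not tested. The log2 fold change of Fosl2 was -1.03 (SE 0.22, adjusted p = 0.0645 in edgeR).

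Egr1 stood at 1598, 2635 and 1299 CPM after PBS and at 792, 1161 and 826 CPM after bleomycin, again without overlap. The SARATg libraries had 1608 and 402 CPM. Its log2 fold change was -0.98 (SE 0.29, adjusted p = 0.110). Junb, at 1785, 2737 and 1646 CPM after PBS and at 983, 1747 and 1004 CPM after bleomycin, overlapped between groups and gave -0.72 (SE 0.29, adjusted p = 0.194 in edgeR).

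No member passed in stromal-like cells, where 6 of 10589 genes passed (0.0567%). At an unadjusted p under 0.05 there were 5 members, all lower after bleomycin (Fosl2, Egr1, Fosb, Junb and Ier2), beside 2442 of all genes, and DESeq2 called Fosl2 and Egr1 among 703 genes. With the replicate number as a block, edgeR called 3 members lower after bleomycin: Fosl2 (-1.05, adjusted p = 0.0414), Egr1 (-0.94, adjusted p = 0.0414) and Junb (-0.73, adjusted p = 0.0453). That fit called 4.39% of all genes. Its p-values, too, take libraries that share barcodes as independent. Within a replicate number, 9 of 10 members were lower after bleomycin in all 3 SARAWT pairs, beside 24.8% of all genes tested. The exception was Fosl1, which stood at 36.1, 87.0 and 169 CPM after PBS and at 85.1, 91.5 and 92.1 CPM after bleomycin. In the single SARATg pair 8 of 10 were lower, all but Fosl1 and Jun, beside 35.5% of all genes.

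The members' median log2 fold change was -0.58 in stromal-like cells, beside -0.03 over all genes tested. Jun, at 640, 899 and 568 CPM after PBS and 571, 745 and 492 CPM after bleomycin, gave -0.21 (SE 0.24). Without SARAWT PBS 2, Egr1 was at -0.63. Leaving out barcodes that libraries share kept 33 of 167 stromal-like cells in PBS 2 and 37 of 150 in bleomycin 1. It also kept 67 of 210 in bleomycin 2 and 532 of 690 in PBS 1. It left Fosl2 at -0.93 (adjusted p = 0.249), moved Egr1 to -0.46 (adjusted p = 0.694) and turned Jun to 0.38 (adjusted p = 0.737).

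Markers of other cells were present in these sums. The keratinocyte list summed to between 82.2 and 100 CPM in the PBS libraries and 34.2 and 60.1 CPM in the bleomycin libraries, and the macrophage list to 86.7 to 287 CPM and 57.5 to 127 CPM. The neutrophil list summed to 98.7 to 422 CPM and 80.8 to 106 CPM. Their part in the lower member levels was not tested.

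**Figure D3:**
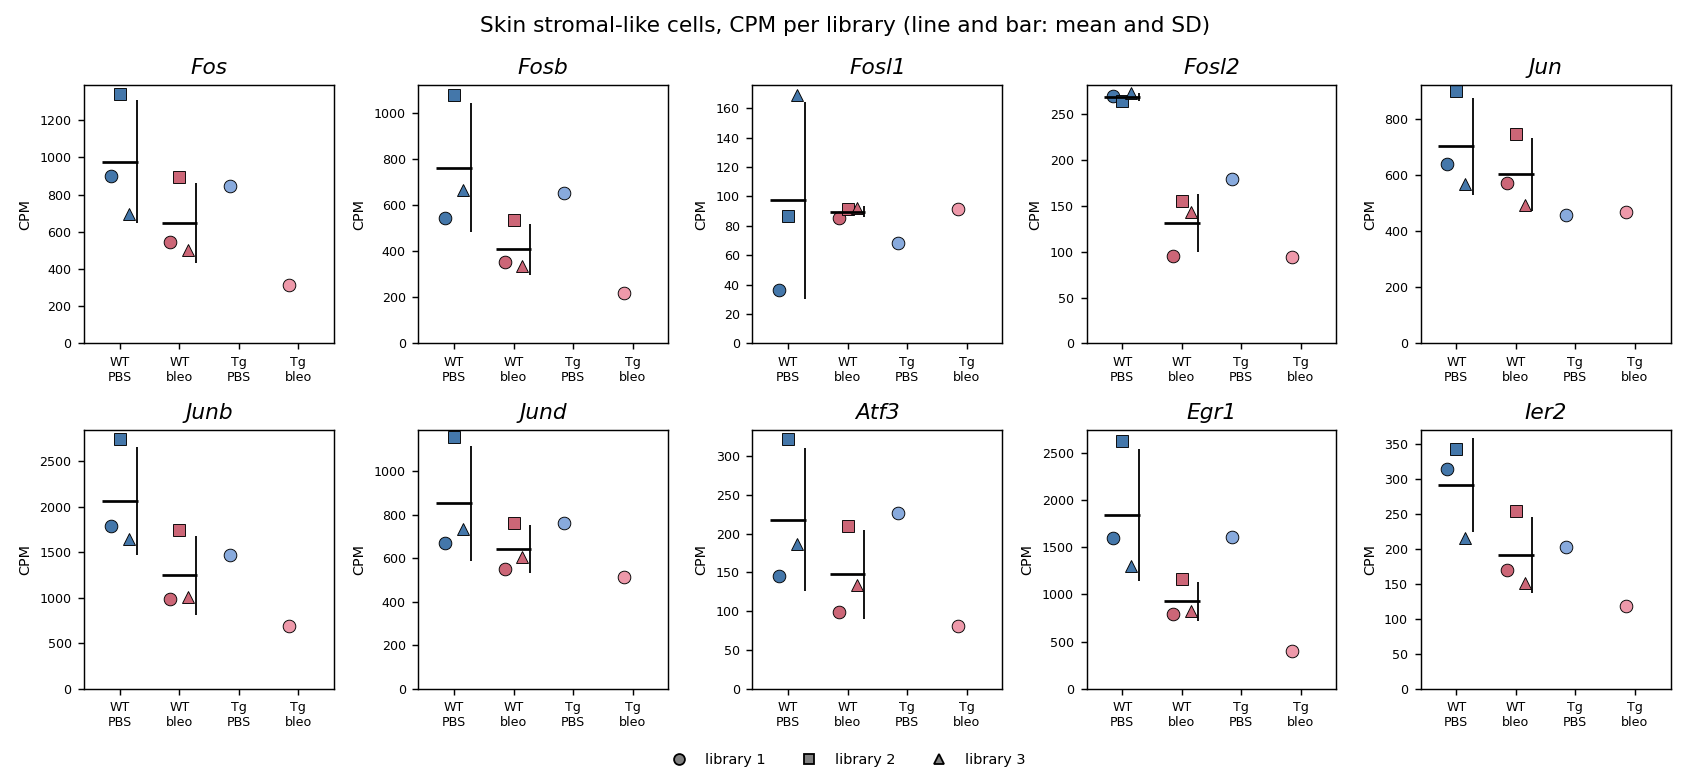
CPM per library of the 10 genes in stromal-like skin cells, 1 panel per gene, with groups on the x axis (WT and Tg stand for SARAWT and SARATg, bleo for bleomycin). Marker shape gives the library number and the line and bar give the mean and SD of groups of 3, and Fosl2 drops from 265 to 273 CPM after PBS to 95.7 to 155 CPM after bleomycin.

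In macrophage-like cells of skin, Jun and Atf3 differed between library numbers. Their treatment groups overlapped, and neither passed (adjusted p = 0.607 and 0.684 in edgeR). Jun stood at 794, 722 and 220 CPM in PBS libraries 1, 2 and 3 and at 347, 407 and 191 CPM in bleomycin libraries 1, 2 and 3. In both groups libraries 1 and 2, which were counted with another gene list and Cell Ranger version than library 3, were high and library 3 low. Atf3 had the same order, with 726, 661 and 246 CPM after PBS and 348, 476 and 164 CPM after bleomycin. Within a number both genes were lower after bleomycin in all 3 pairs, and so were Junb and Jund, which makes 4 of 10 members beside 21.8% of all genes tested.

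Egr1 in macrophage-like cells stood at 1413, 910 and 229 CPM after PBS and at 255, 255 and 239 CPM after bleomycin. PBS libraries 1 and 2 were high, while PBS 3 lay below all 3 bleomycin libraries. Its log2 fold change was -1.64 (SE 0.51, adjusted p = 0.345 in edgeR). Jund, the JUN gene that is expressed steadily in many resting cells, stood at 1390, 1615 and 705 CPM after PBS and at 635, 723 and 432 CPM after bleomycin, with a log2 fold change of -0.96 (SE 0.32, adjusted p = 0.379).

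Fos went the other way in numbers 2 and 3, with 1198, 784 and 590 CPM after PBS and 943, 1009 and 1115 CPM after bleomycin, so its groups overlapped. Fosl2, which separated the groups in stromal-like cells, stood at 425, 366 and 349 CPM after PBS and at 335, 382 and 373 CPM after bleomycin in macrophage-like cells, with a log2 fold change of 0.01 (SE 0.17). A difference between the classes was not tested.

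None of the 10 members passed in macrophage-like cells, where 3 of 11547 genes passed (0.026%). Egr1 and Jund were under an unadjusted p of 0.05, as were 1167 of all genes, and DESeq2 called Egr1 among 219 genes. Without PBS 3, Egr1 and Jund passed in edgeR, as did 4.36% of all genes. With the gene list as a covariate Jund passed, as did 1.25% of all genes. The median log2 fold change of the members was -0.46, beside 0.00 over all genes.

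The heat shock gene Hspa1a, one of a fixed list of 14 heat shock genes of which 0 passed in any comparison, differed between the same library sets. It stood at 1932, 1819 and 643 CPM in PBS libraries 1, 2 and 3 of macrophage-like cells and at 888, 1138 and 280 CPM in the bleomycin libraries. The list's median log2 fold change in skin was -0.30 in macrophage-like cells and -0.03 in stromal-like cells. It was -0.14 over all kept cells and 0.31 in T cell-like cells. The stromal marker list summed to 90.7 to 197 CPM in the macrophage-like cells of the PBS libraries and to 44.1 to 67.2 CPM in those of the bleomycin libraries. The neutrophil list summed to 63.9 to 158 CPM and 89.6 to 156 CPM. The T cell list summed to 52.2 to 280 CPM and 65.8 to 166 CPM, and for both lists the treatments overlapped. The part of heat shock genes or of other cells' markers in the member levels was not tested.

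**Figure D4:**
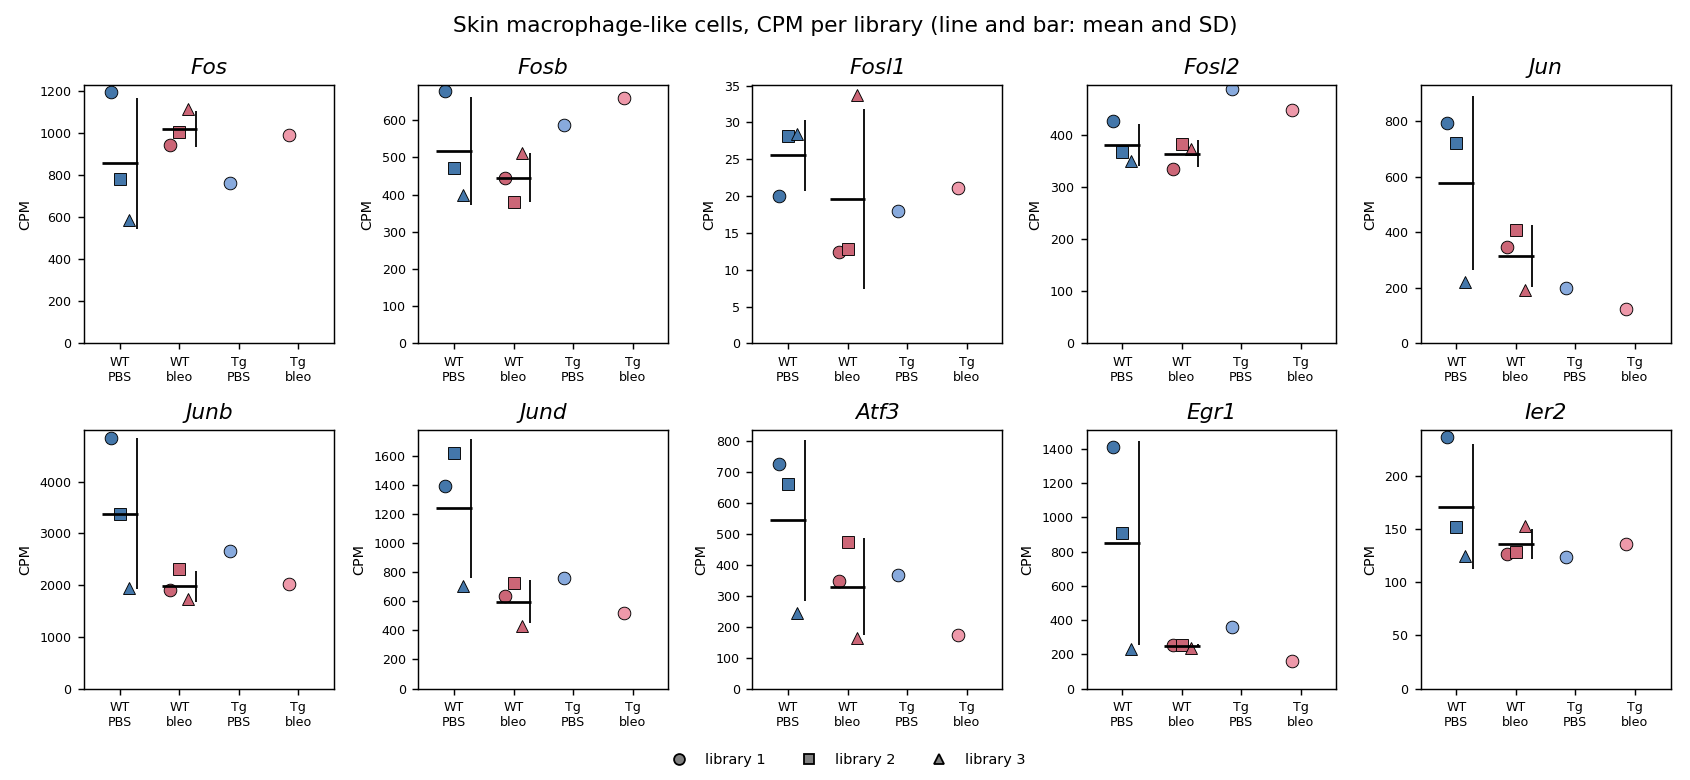
CPM per library of the 10 genes in macrophage-like skin cells, drawn as for stromal-like cells, with WT, Tg and bleo standing for SARAWT, SARATg and bleomycin and marker shape for the library number. For Jun the number 3 libraries lie at the bottom of both SARAWT groups, at 220 CPM after PBS and 191 CPM after bleomycin.

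T cell-like cells of skin were tested with 2 PBS libraries, since PBS 2 had 9 such cells. Fos stood at 1229 and 428 CPM in PBS libraries 1 and 3 and at 538, 279 and 203 CPM after bleomycin. Fosb stood at 822 and 427 CPM and at 355, 234 and 216 CPM, so that every PBS library lay above every bleomycin library. The log2 fold changes were -1.19 (SE 0.51, adjusted p = 0.810 in edgeR) for Fos and -1.14 (SE 0.34, adjusted p = 0.572) for Fosb. None of the 10 members passed, nor any of 9204 genes (0%). Fos and Fosb were under an unadjusted p of 0.05, both lower, as were 560 of all genes in either direction, and DESeq2 called 0 members. Without the filter on low counts, edgeR called Fos (-1.15, adjusted p = 0.00219) and Fosb (-1.10, adjusted p = 0.00615) lower, among 253 genes. With the replicate number as a block, which here rests on 2 pairs, it called the same genes (adjusted p = 0.000205 and 0.000352) and 363 genes in all. In that block fit the SE lay between 0.220 and 0.225 for every member but Fosl1. Without the filter it was 0.264 for Fos and 0.269 for Fosb, beside 0.51 and 0.34 with the filter. The p-values of both fits carry little of a gene's own spread between libraries. The members' median log2 fold change was -0.02, beside 0.01 over all genes, with 5 members below 0 and 5 above, up to 0.52 for Jun. Both PBS libraries in this fit are those whose Zfyve9 or ZFYVE9 goes furthest against the label.

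Among the other genes of this program, the fixed list of 38 other immediate early and feedback genes, which includes Nr4a1, Dusp1 and Klf4, had 0 members past the threshold in each skin comparison. Its median log2 fold change was -0.71 in stromal-like cells, -0.29 in macrophage-like cells, -0.17 over all kept cells and 0.00 in T cell-like cells. The 11 other bZIP factors had 0 past the threshold and a median of -0.61 over the 8 tested in stromal-like cells, beside 0.13 in T cell-like cells. The 12 upstream kinases and factors, such as Srf and Elk1, had 0 past the threshold and a median of -0.32 in stromal-like cells.

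The SARAWT kidney libraries differed in the cells they held. Proximal tubule-like cells made up 84.5%, 73.8% and 17.3% of kept cells in vehicle libraries 1, 2 and 3 and 8.74%, 36.8% and 14.2% in aristolochic acid libraries 1, 2 and 3. T cell-like cells made up 2.55%, 3.39% and 42.1% and then 48.8%, 40.3% and 56.2%. Vehicle 3 therefore resembled the treated libraries in makeup and stood apart from the other 2 vehicle libraries. Those 2 still differed in some members over all kept cells, as for Fosb at 27.1 and 172 CPM. The part of makeup in the members' levels was not tested.

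Over all kept cells Junb stood at 42.2, 112 and 395 CPM after vehicle and at 597, 314 and 616 CPM after aristolochic acid. Vehicle 3 lay inside the treated range. Egr1 had the same order at 6.81, 18.3 and 78.7 CPM and then 99.3, 46.6 and 101 CPM. The log2 fold changes were 1.38 (SE 0.79, adjusted p = 0.485 in edgeR) for Junb and 1.15 (SE 0.86, adjusted p = 0.531) for Egr1.

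Jun stood at 241, 962 and 266 CPM after vehicle and at 267, 191 and 263 CPM after aristolochic acid, with vehicle 2 alone far above the others, and gave a log2 fold change of -1.08 (SE 0.53, adjusted p = 0.481). None of the 10 members passed, nor any of 16055 genes (0%). No member was under an unadjusted p of 0.05, beside 1213 of all genes, and DESeq2 called 0 members.

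Within proximal tubule-like cells the vehicle libraries differed as much. Egr1 stood at 1.86, 3.08 and 33.9 CPM after vehicle and at 26.8, 15.2 and 39.5 CPM after aristolochic acid. Fosl2 stood at 3.29, 3.77 and 41.8 CPM and at 47.7, 9.12 and 28.1 CPM. Junb stood at 19.1, 17.4 and 161 CPM and at 147, 47.5 and 130 CPM. For all 3 genes vehicle libraries 1 and 2 lay below the treated libraries and vehicle 3 lay inside or above their range.

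None of the 9 members tested passed in proximal tubule-like cells (0% of 12733 genes), none was under an unadjusted p of 0.05, and DESeq2 called 0. Markers of the macrophage list, read in the same proximal tubule-like sums, stood at 31.8, 40.3 and 243 CPM after vehicle and at 389, 140 and 386 CPM after aristolochic acid. Vehicle 3 was again close to the treated libraries. The T cell list summed to 5.49 to 19.7 CPM and 28.5 to 76.0 CPM. The neutrophil list summed to 62.4 to 200 CPM and 81.6 to 135 CPM, ranges that overlap. Their part in the levels was not tested.

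These counts turned on vehicle 3. Without it, edgeR called 5 members higher after aristolochic acid over all kept cells: Junb (2.65, adjusted p = 0.0268), Egr1 (2.64, adjusted p = 0.0287), Fosl2 (1.81, adjusted p = 0.0388), Ier2 (1.81, adjusted p = 0.0481) and Fosl1, whose remaining vehicle libraries had 0 and 2 UMIs. That fit also called 22.1% of all genes. In proximal tubule-like cells it called Egr1 (3.28, adjusted p = 0.0289), Atf3 (2.62, adjusted p = 0.0363) and Junb (2.36, adjusted p = 0.0493) higher, with 3.83% of all genes. Without vehicle libraries 1 and 2 instead, Egr1 was at -0.04 over all kept cells and at -0.52 in proximal tubule-like cells. That fit leaves a single vehicle library, so no p-value or count of calls is given for it.

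**Figure D5:**
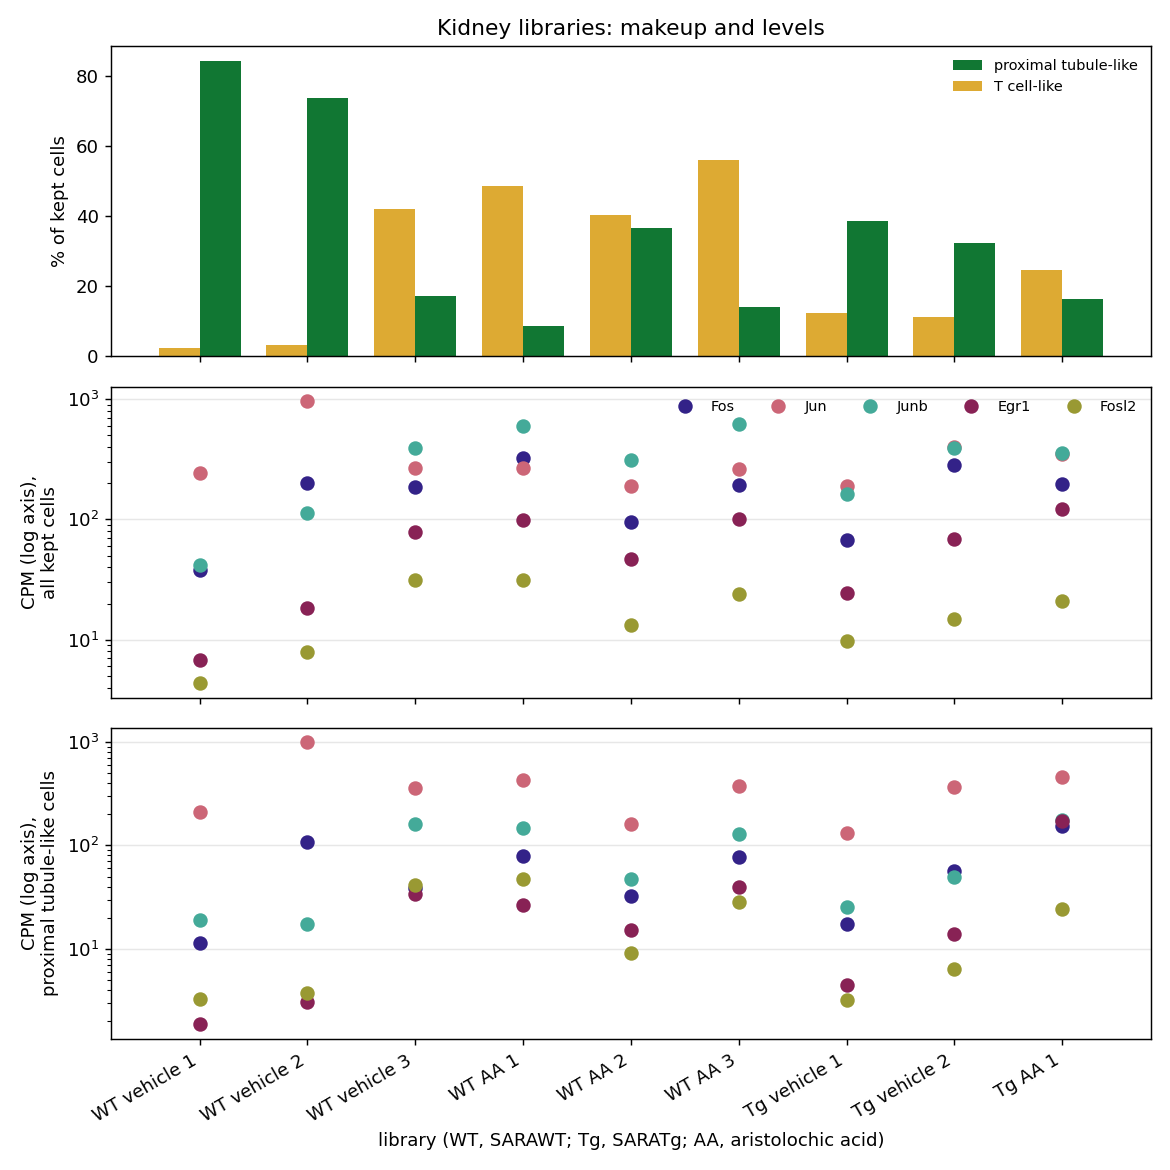
Top, share of kept cells (%) that were proximal tubule-like or T cell-like in each of the 9 kidney libraries; middle and bottom, CPM (log axis) of Fos, Jun, Junb, Egr1 and Fosl2 over all kept cells and in proximal tubule-like cells, 1 point per library, where the axis shortens SARAWT, SARATg and aristolochic acid to WT, Tg and AA. Vehicle 3 resembles the treated libraries, as for proximal tubule-like Junb at 161 CPM beside 19.1 and 17.4 CPM in vehicle libraries 1 and 2.

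In kidney macrophage-like cells Fosl2 stood at 22.6, 18.7 and 26.3 CPM after vehicle and at 35.9, 38.4 and 39.6 CPM after aristolochic acid. The groups did not overlap, and the gene's UMIs numbered 37, 54 and 403 and then 593, 67 and 389. Its log2 fold change was 0.68 (SE 0.21, adjusted p = 0.748 in edgeR). The SARATg libraries gave 24.1 and 23.8 CPM after vehicle and 20.8 CPM after aristolochic acid.

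None of the 9 members tested passed in these cells, nor any of 11154 genes (0%). Fosl2, Junb and Egr1 were under an unadjusted p of 0.05, all higher, beside 736 of all genes in either direction, and DESeq2 called 0. Without vehicle 3, Fosl2 passed as higher (0.92, adjusted p = 0.0350) and Jun as lower (-1.17, adjusted p = 0.0385), with 7.05% of all genes. Jun stood at 814, 1195 and 298 CPM after vehicle and at 344, 487 and 476 CPM after aristolochic acid, so the low vehicle library is number 3.

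Endothelial-like cells could be tested with aristolochic acid libraries 1 and 2, which held 126 and 21 of them. None of the 9 members passed (0% of 7253 genes), none was under an unadjusted p of 0.05 and DESeq2 called 0. Egr1, for example, stood at 21.3, 52.8 and 145 CPM after vehicle and at 188 and 13.6 CPM after aristolochic acid, a spread that covers either direction.

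Genotype was compared in kidney after vehicle, with 2 SARATg and 3 SARAWT libraries. Over all kept cells Egr1 stood at 24.6 and 69.1 CPM in SARATg and at 6.81, 18.3 and 78.7 CPM in SARAWT, and Junb at 164 and 394 CPM beside 42.2, 112 and 395 CPM. The groups overlapped for both genes. In proximal tubule-like cells all 9 members tested had a log2 fold change below 0 in SARATg, with a median of -0.69 beside -0.05 over all genes, and the list of other immediate early genes had a median of -0.87. Fosl2, at 3.23 and 6.41 CPM in SARATg and at 3.29, 3.77 and 41.8 CPM in SARAWT, had the lowest, -1.63 (SE 1.23, adjusted p = 0.990 in edgeR). For Fosl2 only vehicle 3 of the SARAWT libraries was high, while for Fos, Fosb, Jun and Jund vehicle 2 was the highest. Without vehicle 3 the members' median was -0.06. None of the 9 members tested passed over all kept cells (0% of 16424 genes) or in proximal tubule-like cells (0% of 13854 genes), none was under an unadjusted p of 0.05 in either, and DESeq2 called 0 in both. The lists of other immediate early, heat shock, bZIP and upstream genes had 0 past the threshold in every kidney comparison.

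The single SARATg aristolochic acid library, whose Zfyve9 goes against its label, had the highest Egr1 of proximal tubule-like cells, at 173 CPM, where the other 8 libraries ran from 1.86 to 39.5 CPM. With 1 library in this group there is no test.

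Over the 17 libraries, with each tissue's mean taken out and all kept cells summed, the gene whose log2(CPM + 1) was most like the mean of the 10 members among 4622 genes compared was Klf6, an injury-responsive zinc finger factor (Pearson's r = 0.956). Also among the 5 most alike were Ppp1r15a, a stress-induced phosphatase subunit (0.935), Zfp36, an mRNA-decay factor (0.934), and Ddhd2, a lipase (0.917). Among the members themselves, Atf3 followed the mean of the other members most closely (r = 0.960), then Ier2 (0.925), Egr1 (0.902) and Fos (0.896), and Jun least (0.323). These correlations are descriptions over libraries that share tissue makeup, treatment and library sets, and they carry no test.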

How the data were processed

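The authors deposited UMI count matrices, 1 per library, made per the file headers with Cell Ranger 4.0.0 (4 skin libraries, whose gene list adds human ZFYVE9), 3.1.0 (4 skin) and 3.0.2 (9 kidney). The submitters' processing notes name Cell Ranger 3.0.2, Seurat 2.3.4 and mm10. The counts are not normalised. A barcode was kept from 200 detected genes upward when mitochondrial UMIs made up no more than 20% (skin) or 50% (kidney). A cell took the class with the largest share of its marker list detected (at least 3 markers and 1.5 times the next class). Cells with close classes, 14.9% in skin and 8.16% in kidney, were left out, which also served for doublets, as no doublet caller was run, and a further 14.8% and 2.38% reached no class. Cells at the gate's minimum of 3 markers made up 0% to 30.0% of a class, most in kidney dendritic cell-like cells. UMIs were summed per library and class (at least 20 cells) and tested with edgeR 4.0.16 (quasi-likelihood, TMM, its filter on low counts, Benjamini-Hochberg over all genes, threshold 0.05) in R 4.3.3. The scripts were tested on simulated counts. A member that did not pass is not shown to be unchanged, least of all in kidney, where libraries of a group differed widely. P-values measure at most the spread between these libraries, since nothing in the labels says that each came from a different animal. Skin libraries that share barcodes were taken as independent in every SD and test, and whether they are was not tested.

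Named genes were all 10 members, genes of 4 fixed lists that passed (at most 3 per list and comparison), and the 5 non-members most like the members, of which 1 is not reported here. Hspa1a and the genes given in the closing observations were chosen after their values were seen, and other list genes are named only as examples. Members and lists were chosen with earlier results of these data known. In skin, same-numbered libraries deviated together from their group means: the correlations over genes were 0.256, 0.127 and 0.526 for all kept cells, 0.178, 0.220 and 0.346 for stromal-like and 0.285, 0.240 and 0.559 for macrophage-like cells. The numbers were therefore taken to pair them. The pairing comes from the data, and numbers 1 and 2 also share a gene list that number 3 does not. For PBS 1 with bleomycin 2 and PBS 2 with bleomycin 1 the correlations were 0.186 and 0.212 over all kept cells. They were 0.278 and 0.150 in macrophage-like cells and -0.0913 and 0.0511 in stromal-like cells. Over all kept and macrophage-like cells, then, numbers 1 and 2 are not clearly told apart, and results within a number carry that limit. CPM was compared within a gene and not between genes.

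Alternatives were DESeq2 1.42.0, no TMM scaling, no filter on low counts, leaving out each library, the replicate block, a stricter cell filter, shared barcodes left out and a stricter gate, and, added after seeing the data, the gene list as a covariate and pairs of libraries left out. Class levels were also recomputed as CPM without mitochondrial UMIs. Intervals and limits cover counting error only.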

Additional observations from a re-analysis of the deposited data

Results flagged for a closer look

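Fosl2 in kidney macrophage-like cells was set apart because the direction of the difference with aristolochic acid was opposite in the 2 genotypes. In SARAWT the treated libraries ran from 35.9 to 39.6 CPM and the vehicle libraries from 18.7 to 26.3 CPM. In SARATg the treated library had 20.8 CPM (95% counting interval 18.6 to 23.2). The SARATg vehicle libraries had 23.8 CPM (19.0 to 29.5) and 24.1 CPM (19.4 to 29.5), so these intervals overlap with that of the treated library. The difference was not tested. It rests on 1 treated SARATg library, and mouse Zfyve9 goes against the label in both that library (20.7 CPM) and the one labelled SARAWT aristolochic acid 1 (167 CPM).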

How the results depend on the processing

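No member passed in any of the 10 comparisons, and that count held under most alternatives. In skin, DESeq2 called 1 member over all kept cells (Egr1), 2 in stromal-like cells (Fosl2 and Egr1) and 1 in macrophage-like cells (Egr1). Without the filter on low counts, edgeR called 1 in stromal-like cells (Fosl2) and 2 in T cell-like cells (Fos and Fosb). The p-values of those T cell-like calls carry little of a gene's own spread between libraries. The replicate block called 3 in stromal-like cells and 2 in T cell-like cells (Fos and Fosb), where the pairs number 2 (r = 0.376 and 0.506), and it changed no other call. With the gene list as a covariate 2 members passed over all kept skin cells (Jun and Egr1) and 1 in macrophage-like cells (Jund), among 831 and 144 genes. Leaving out 1 library at a time gave between 0 and 2 members over all kept skin cells and in skin macrophage-like cells (2 without PBS 3), 0 to 5 over all kept kidney cells, 0 to 3 in proximal tubule-like cells and 0 to 2 in kidney macrophage-like cells (each highest without vehicle 3), and 0 in the others. Where an arm then held 1 library, it was assumed to vary like the rest. Among called values, 2 changed sign without vehicle 3: Fosl1 over all kept kidney cells (4.95, from -0.50, and as low as -1.04 without vehicle 2) and Atf3 in proximal tubule-like cells (2.62, from -0.08, and as low as -0.60 without vehicle 1). Over all genes, calls rose from 0 to 1320 with DESeq2 and to 584 with the block over all kept skin cells, from 6 to 703 and 465 in stromal-like cells, from 3 to 219 and 73 in macrophage-like cells, and from 0 to 36 and 363 in T cell-like cells. In kidney DESeq2 called 80 genes over all kept cells, 40 in proximal tubule-like, 9 in endothelial-like and 30 in macrophage-like cells, and 87 and 30 in the genotype comparisons. Without the low-count filter edgeR called 360, 795, 108 and 253 genes in the skin comparisons in the same order. Without TMM the median of all genes over all kept skin cells moved from 0.01 to -0.14. The kidney numbers were not taken to pair libraries, since number 1 fell short of a correlation of 0.1 in the treatment comparison (r = -0.392, 0.373 and 0.317 for numbers 1, 2 and 3 over all kept cells) and the genotype comparison has 2 pairs (0.271 and 0.116), and the block left 0 members called in kidney. Except where named here, the cause of a change was not tested. Of 1293 member fold changes under an alternative, 127 changed sign, and 2 of these had a call. Of 720 class levels recomputed, 66 moved by more than the SD between libraries. Of these, 46 came from CPM without mitochondrial UMIs, 10 from the stricter cell filter and 10 from the stricter gate. In kidney, 7 of 9 libraries gave 26 Fosl1 UMIs or fewer, so its values there carry a wide counting error.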

Other observations

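Keratinocyte-like cells of skin, which line the epidermis, were in no test, and the values below describe single libraries. Fos stood at 1353 and 1124 CPM in SARAWT PBS libraries 1 and 3 and at 716, 519 and 541 CPM in the bleomycin libraries. Junb stood at 1380 and 1299 CPM and at 712, 809 and 759 CPM, and Jun at 1011 and 1432 CPM and at 503, 491 and 961 CPM. Egr1 stood at 1093 and 904 CPM and at 579, 543 and 905 CPM. These 4 genes were chosen after their values were seen. In the SARATg pair Fos stood at 1905 CPM after PBS and 926 CPM after bleomycin. Schwann-like cells had Jun at 1131 and 1458 CPM in the same PBS libraries and at 605 and 574 CPM in bleomycin libraries 1 and 3, with 1581 and 478 CPM in the SARATg pair.

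In neutrophil-like cells of skin Junb stood at 8946 and 3587 CPM in PBS libraries 1 and 3 and at 9416 and 4620 CPM in bleomycin libraries 1 and 3, so it differed more between numbers than between treatments. SARAWT PBS 1 had the highest mean member level in 5 of the 8 skin classes compared across libraries.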
